A study of Bos taurus with 2 samples.

Results

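The zinc finger genes of cattle chromosome 18 were taken as the genes of that chromosome whose symbol is ZNF followed by a number in the RefSeq annotation of ARS-UCD2.0. The rule found 92 genes among 36056 annotated genes of chromosomes 1 to 29 and X, and all of them were kept whatever their methylation. The remaining 1140 protein-coding genes of chromosome 18 served for comparison, and another 209 ZNF genes lay on other chromosomes. Of the 1140, 13 carried other zinc finger symbols, among them PEG3 and ZIM2. CpG methylation came from whole-genome bisulfite sequencing (WGBS), in which unmethylated cytosines are converted so that a read shows for each CpG it covers whether the cytosine was methylated (a call). The samples were 2 bones, labelled Bone_1 and Bone_2, of female Holstein cattle. They form a single group with no treatment or control tissue, the labels do not say whether they came from 1 animal or 2, and bone holds many cell types whose shares cannot be told apart from methylation per cell in bulk DNA. The counts held 582241763 calls in Bone_1 and 440334436 in Bone_2, and over chromosomes 1 to 29 and X the level came to 72.3% in Bone_1 and 58.7% in Bone_2.

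Most genes with this naming encode proteins with a row of zinc fingers, small folded repeats that each bind a few bases of DNA, and many also carry a KRAB (Krüppel-associated box) domain. KRAB binds TRIM28, which brings the histone methyltransferase SETDB1 and other silencing proteins to the bound DNA, often a transposable element. The genes arose largely by tandem duplication and so lie side by side, and the whole finger row is usually encoded in the last exon, where near-identical finger units follow each other at a fixed spacing. In other mammals, that last exon is known to carry repressive histone methylation while the gene is transcribed.

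The annotation at hand gives the ends of each gene but not its strand, so the start of transcription was not known. Instead, the ends of each gene were ordered by CpG number: the CpG-richer end (1000 bp outside the gene to 500 bp inside it) took the place of the promoter, and the 2 kb inside the CpG-poorer end took the place of the end of transcription. A level is the methylated share of all calls summed over a region, and a region needed at least 20 calls in each sample. The ordering was clear for most ZNF genes. The richer end held a median of 70.5 CpG sites and the poorer end 15, and the richer end held at least 2 times as many sites in 72 of 92 ZNF genes (78.3%), against 664 of 1140 other genes (58.2%). All 92 genes passed the minimum at the richer end and over the body, and 89 passed it in the 2 kb inside the poorer end. ZNF382, ZNF461 and ZNF569, all of 1 stretch of neighbouring genes, did not pass there, with 8, 12 and 0 calls in Bone_1.

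Deposited positions and annotated genes come from different statements of the genome build, which was checked on the CpG sites themselves. Over 6 parts of chromosome 18, 7.65 to 11.9 CpG sites lay within 100 bp of the ends of protein-coding genes, against 2.80 to 4.23 at 5 kb from them. The peak of CpG sites therefore stood at the annotated gene ends along the whole chromosome. Positions given here are those of the deposited counts.

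The CpG-richer ends of the ZNF genes were mostly unmethylated. Their median level was 8.19% in Bone_1 and 11.0% in Bone_2, or 9.61% ± 2.00 (SD, n = 2), against 14.8% and 18.3% for other genes. By the mean over CpG sites with at least 5 calls in both samples, a computation chosen after the data were seen, the order of the samples turned, with 10.2% in Bone_1 and 8.26% in Bone_2 for ZNF ends and 18.03% and 14.9% for other genes. In both samples, 61 of 92 ZNF ends (66.3%) lay under 20%, against 551 of 1113 other genes (49.5%) and 63.3% of the ZNF genes of other chromosomes. Of the 13 genes of the chromosome with other zinc finger symbols, 5 (38.5%) were low. Under 5% in both samples were 30 ZNF ends (32.6%, other genes 24.3%), and 7 ZNF ends were over 60% in both samples, against 187 other ends (16.8%). The richer ends of ZNF genes rested on 47 to 4969 calls in Bone_1 and 153 to 1116 in Bone_2, which gave 95% Wilson intervals that reached, at the median, 1.35 and 2.63 percentage points to either side. These intervals cover counting error only.

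The median difference between ZNF ends and other ends was -6.92 percentage points ± 0.46 (SD, n = 2). It depended on which genes were compared. When genes of both groups were kept only if their richer end held at least 2 times the CpG sites of the poorer one, it came to -0.67 ± 0.69 points, and against other genes of every kind it came to -27.4 points. The groups differed most where CpG sites were few. Among ends with up to 39 CpG sites, 6 of 15 ZNF ends (40%) but 7 of 302 other ends (2.32%) were under 20% in both samples, and with 40 to 69 sites the counts were 18 of 30 (60%) and 98 of 271 (36.2%). Ends with 70 to 99 sites were low in 26 of 32 ZNF genes (81.2%) and in 77.6% of other genes. With 100 sites or more the order turned, with 11 of 15 ZNF ends (73.3%) and 88.6% of other ends low.

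By distance from the richer end, the unmethylated stretch was short. In the first 250 bp inside the gene, the median over ZNF genes was 0.9% in Bone_1 and 0.6% in Bone_2. Between 750 and 1000 bp inside it was 52.8% and 37.2%, and between 2000 and 2250 bp it was 89.7% and 70.1%, against 80.8% and 60.2% in other genes at the same distance. The lower quartile showed the groups apart on the inner side: at 2000 to 2250 bp it was 83.0% and 57.8% in ZNF genes and 61.5% and 45.5% in other genes.

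**Figure D1:**
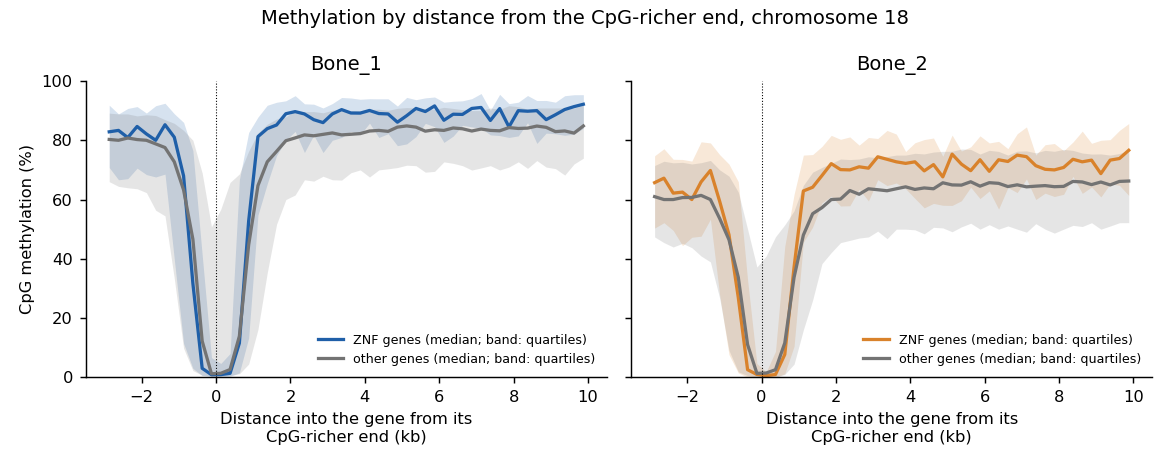
CpG methylation in percent against the distance in kb from the CpG-richer end into the gene, in bins of 250 bp, for ZNF genes (coloured) and other protein-coding genes (grey) of chromosome 18; lines are medians over genes and bands run from the lower to the upper quartile. Both groups fall to about 1% at the end, and ZNF genes reach 89.7% in Bone_1 and 70.1% in Bone_2 at 2000 to 2250 bp inside, above the 80.8% and 60.2% of other genes.

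Among single genes, the lowest ends belonged to ZNF473, which takes part in the processing of histone messenger RNA, and to ZNF614, ZNF428, ZNF319 and ZNF276. The end of ZNF473 read 0.15% in Bone_1 and 0.36% in Bone_2 over 87 CpG sites, from 2640 and 1116 calls. For ZNF614 the values were 0.32% and 0.66%, and for ZNF428 they were 0.59% and 0.42%. ZNF319 read 0.46% and 0.55% over 157 sites, and ZNF276 read 0.64% and 0.40% over 176 sites. In none of these 5 did the samples differ past an adjusted p of 0.05 by Fisher's exact test with Benjamini-Hochberg adjustment.

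The highest ends were those of ZNF729, ZNF135, ZNF446, ZNF235 and ZNF23, and most of them held few CpG sites. ZNF729 read 88.3% in Bone_1 and 73.7% in Bone_2 over 21 sites, ZNF235 read 86.6% and 69.9% over 21 sites (its poorer end held 13), and ZNF23 read 85.1% and 70.6% over 9 sites. ZNF446 read 88.9% and 70.8% over 41 sites. ZNF135 read 89.5% and 72.0% over 56 sites, but its poorer end, with 46 sites, was nearly as rich, and the 2 kb inside that end read 14.9% and 15.6%. The order of its ends was thus not clear.

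Between these extremes, 14 ends lay from 20% to 80% in both samples. They were the ends of ZNF469, ZNF599, ZNF875, ZNF404, ZNF227, ZNF180, ZNF541, ZNF432, ZNF865, ZNF524, ZNF628, ZNF134, ZNF274 and ZNF584. ZNF469, a gene mutated in brittle cornea syndrome, read 60.4% in Bone_1 and 41.0% in Bone_2 over 126 sites. ZNF541, known for its role in male meiosis, read 45.9% and 34.5% over 129 sites. ZNF274, a KRAB protein that binds the last exons of other zinc finger genes, read 34.1% and 32.3%, and its neighbour ZNF584 read 34.3% and 42.3%. ZNF865 and ZNF524 shared part of their end windows, and read 76.0% and 68.8% for ZNF865 and 53.0% and 52.1% for ZNF524.

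**Figure D2:**
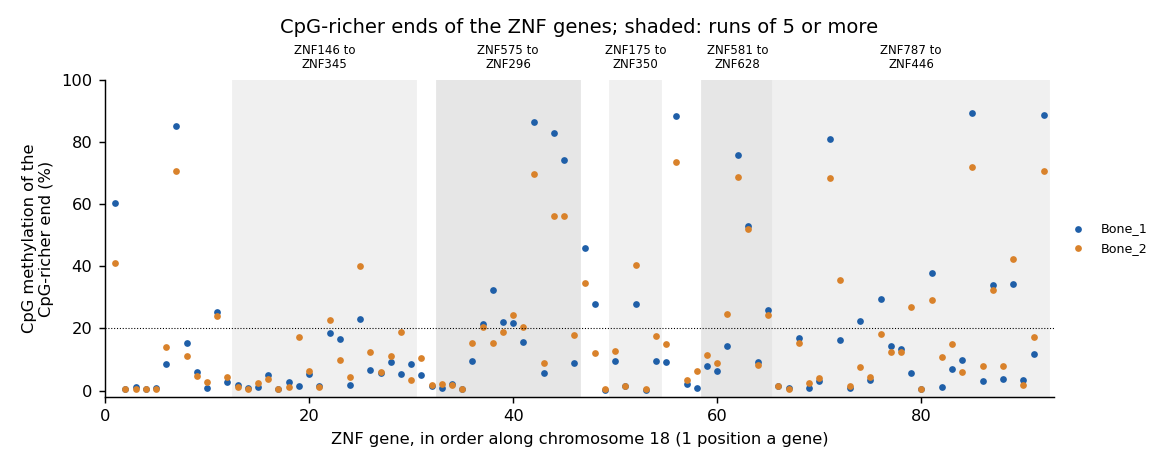
CpG methylation in percent of the CpG-richer end of each of the 92 ZNF genes, in order along chromosome 18 with 1 position a gene; blue points are Bone_1, orange points Bone_2, the dotted line marks 20%, and shading marks the 5 runs of at least 5 neighbouring genes. Most points lie under the line, and the run from ZNF575 to ZNF296 holds several ends over 60% in Bone_1.

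The ZNF genes lay in 18 runs, a run being broken by a gap of over 500 kb between neighbours. The 5 runs of at least 5 members held 71 of the 92 genes, and 7 genes stood alone. In the run from ZNF146 to ZNF345 (CpG sites 46808196 to 47583656), 16 of 18 ends were under 20% in both samples and the median end read 5.1% in each. The largest run, from ZNF787 to ZNF446 (63496860 to 65729982) close to the end of the chromosome, had 17 low ends of 27 and medians of 9.7% and 12.4%. In the run from ZNF175 to ZNF350, 4 of 5 ends were low. The run from ZNF575 to ZNF296 (51736529 to 52753526) had 6 low ends of 14 and medians of 18.7% and 18.4%, and its ends held a median of 51.5 CpG sites. The run from ZNF581 to ZNF628 was mixed at the other side of the genes. The 2 kb inside the poorer end read a median of 62.3% and 30.6% there, which are the values of ZNF628. The medians of the runs from ZNF146, ZNF575, ZNF175 and ZNF787 were 87.4% or more in Bone_1 and 68.5% or more in Bone_2. In Bone_1, ZNF580, ZNF581 and ZNF524 read 9.10%, 29.7% and 8.28%, while ZNF784, ZNF865 and ZNF579 read 88.9%, 80.9% and 93.3%. ZNF580 and ZNF581 are short genes in which the regions overlap. Neighbours were not independent, since 8 pairs of end windows shared sequence (among them ZNF582 with ZNF583, ZNF419 with ZNF772 and ZNF570 with ZNF569) and 7 pairs of genes overlapped, which the counts cannot separate.

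At the opposite end, the ZNF genes were highly methylated. The 2 kb inside the CpG-poorer end had a median of 87.8% in Bone_1 and 71.4% in Bone_2, or 79.6% ± 11.6 (SD, n = 2), against 80.6% and 62.2% for other genes. Over 60% in both samples were 71 of 89 ZNF genes (79.8%), against 605 of 1113 other genes (54.4%) and 77.4% of the ZNF genes elsewhere. Of the 13 genes with other zinc finger symbols, 7 (53.8%) were over 60%. The median difference from other genes was 8.25 percentage points ± 1.43 (SD, n = 2), and 5.16 ± 0.62 with the 2-fold condition on the ends in both groups, a change of over 1.5 times.

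Within each gene longer than 3000 bp, both regions were set against each other in each sample (Fisher's exact test, two-sided, Benjamini-Hochberg adjustment over 22211 genes). The 2 kb inside the poorer end lay above the richer end in both samples in 76 of 86 ZNF genes (88.4%), with 65.1% of all genes tested called the same way and 683 of 950 other genes of the chromosome (71.9%). On the other chromosomes, 171 of 192 ZNF genes (89.1%) were called. With the 2-fold condition on the ends, 63 of 68 ZNF genes and 80.7% of all genes were called, so the ZNF genes stood nearer the background. The median difference over ZNF genes was 76.1 points in Bone_1 and 59.1 in Bone_2, against 58.8 and 41.6 in other genes. The exact tests take all calls as independent, but calls of neighbouring CpG sites often come from the same read, so their p-values are too small.

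The contrast was widest in ZNF146, whose protein consists of little more than fingers, and in ZNF181, ZNF444, ZNF383 and ZNF8. In ZNF146 the richer end read 1.77% in Bone_1 and 1.28% in Bone_2 while the 2 kb inside the poorer end read 99.1% and 87.9%, from 109 and 314 calls. ZNF181 went from 0.77% and 2.84% to 100% and 82.4%, though only 25 calls stood behind the value of 100%. ZNF383 went from 1.78% and 4.29% to 100% and 81.4%, from 38 calls in Bone_1. The far ends of ZNF444 and ZNF8 were CpG-rich as well and still methylated: 177 CpG sites at 94.0% and 84% in ZNF444, and 172 sites at 95.6% and 89.3% in ZNF8.

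The reverse order was called in 3 of 86 ZNF genes (3.49%), namely ZNF135, ZNF235 and ZNF524, with 7.97% of all genes and 8.84% of the other genes of the chromosome called that way. In ZNF524 the 2 kb inside the poorer end held 131 CpG sites at 8.28% in Bone_1 and 10.1% in Bone_2. That of ZNF235 read 66.8% and 31.9%. In ZNF524 the order of the ends was unclear, since its far 2 kb was low and held many CpG sites. Its richer end window also shared 1090 bp with that of ZNF865. In ZNF135 and ZNF235 the order of the ends was unclear, since a stretch of repeated CpG spacing lay nearer the end taken as the richer one. In 21 of the 25 ZNF genes with such a stretch, it lay nearer the other end. ZNF628 and ZNF835 also had it nearer the richer end, so the order of their ends was unclear too. Another 7 genes were called in neither direction in both samples, namely ZNF23, ZNF285, ZNF180, ZNF729, ZNF865, ZNF211 and ZNF446, and of these all but ZNF211 had a richer end over 50% in both samples. Low far ends were also found in ZNF580 (9.10% and 10.9%), in its neighbour ZNF581 (29.7% and 24.2%), both short genes in which the regions overlap, and in ZNF677 (21.5% and 40.8%).

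**Figure D3:**
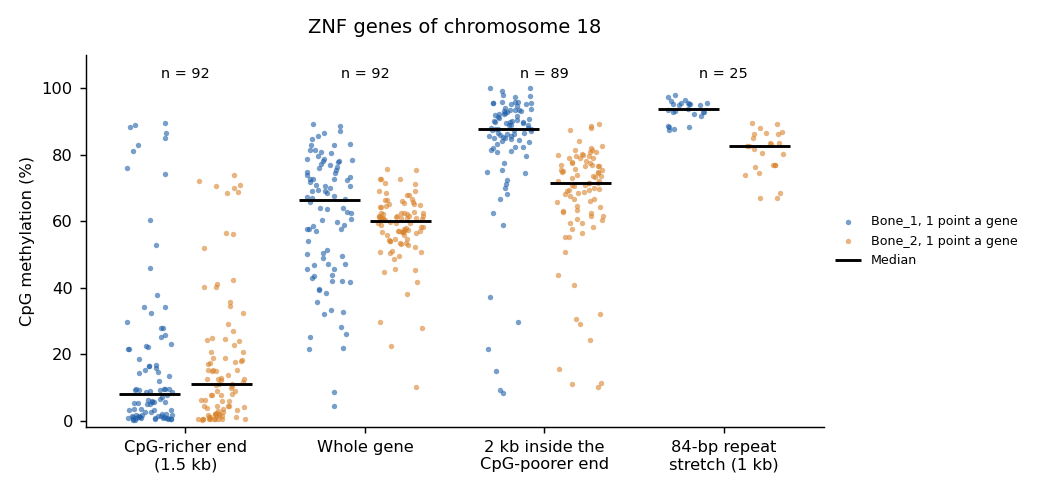
CpG methylation in percent of each ZNF gene (1 point a gene, blue for Bone_1, orange for Bone_2, black lines for medians) at the CpG-richer end, over the whole gene, in the 2 kb inside the CpG-poorer end and in the stretch of CpG sites spaced 84 bp apart. Medians rise from 8.19% and 11.0% at the richer end to 87.8% and 71.4% in the 2 kb inside the poorer end and 93.8% and 82.5% in the stretch, and a few genes stay low at the far end.

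The deposited positions held a spacing that finger rows would give, though without exons or proteins at hand the rows themselves were not located. One finger with its linker is encoded by 84 bp, so a CpG kept in successive fingers recurs at that spacing. Among 45961 CpG sites inside ZNF genes, 0.973% had a CpG with the same flanking bases 84 bp further on, against 0.333% as the median of the 40 distances next to it, while inside other genes the values were 0.394% and 0.327%. For each gene, the 1000 bp window with most such pairs at 84, 168 and 252 bp was scored against 40 neighbouring distances at each, without use of any methylation call, and a score over 5 was called a repeat stretch. This search was chosen after the data were seen. Stretches were found in 25 of 92 ZNF genes (27.2%) and in 35 of 1140 other genes (3.07%). The scores just outside the limit were those of ZNF574 (4.95) and ZNF350 (4.83), and just inside it ZNF423 (5.06), so that a gene without a called stretch is not one without fingers. In 21 of the 25 ZNF genes the stretch lay nearer the CpG-poorer end, the exceptions being ZNF235, ZNF628, ZNF835 and ZNF135.

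Methylation was high in all 25 stretches of the ZNF genes. Their median level was 93.8% in Bone_1 and 82.5% in Bone_2, against 69.97% and 59.1% in the rest of the same genes. They ranged from 87.3% to 97.9% in Bone_1 and from 66.8% to 89.5% in Bone_2. By Fisher's exact test in each sample, 24 of 25 stretches lay above the rest of their gene in both samples, with 67.8% called among the 59 genes of the chromosome that had a stretch with enough calls, and 16 of 34 called among the other genes. The 25th was ZNF420, with an adjusted p of 0.13 in Bone_2 by the exact test. The rest of a gene holds its unmethylated end, and the contrast depended on it. With the 2 kb inside the richer end left out, 15 of 25 stretches were called above the rest in both samples, with 40.4% of the genes with a stretch called. By the mean over sites, the stretches of ZNF genes read a median of 93.6% in Bone_1 and 83.2% in Bone_2, the rest of the genes 66.3% and 55.0%, and the rest without that 2 kb 88.8% and 73.6%. In other genes, the stretches read 88.1% and 70.6% by that mean, and the rest without that 2 kb 79.8% and 65.7%. By the same mean, 21 of 25 stretches of ZNF genes and 18 of 34 of other genes stood above that rest in both samples. The stretches of ZNF genes stood far above the ends, and by less above the remaining body.

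The stretches with many CpG sites were highly methylated too. Among windows of 1000 bp inside other genes and over 3 kb from either end, those with at least 80 CpG sites (57 windows) had a median of 14.3% in Bone_1 and 16.1% in Bone_2. The 7 stretches of ZNF genes with at least 80 sites had medians of 95.2% and 86.6%, and the lowest of them read 92.9% and 81.7%. These windows and stretches were not matched for position, since 6 of the 7 stretches lay within 3 kb of an end. The single stretch of this density in another gene was that of MZF1, a zinc finger gene under another name, at 91.8% and 94.1%. ZNF835 held 136 sites (63909442 to 63910432) at 97.2% and 86.6%, from 6104 and 254 calls, and the rest of the gene read 68.7% and 55.0%. ZNF324 held 108 sites at 96.3% and 89.5% against 52.0% and 51.7% in its rest, and ZNF865 held 115 sites at 95.4% and 81.7%. The rest here includes the CpG-richer end. By the mean over sites, the rest without the 2 kb inside that end read 92.1% and 75.9% in ZNF324, nearer its stretch (96.2% and 89.5%). In ZNF835 that rest read 62.5% and 50.9%. Only 1 site of its stretch had at least 5 calls in both samples, so no mean over sites of the stretch can be set beside it. ZNF319, whose richer end was among the least methylated, held 97 sites at 93.8% and 86.2%. With 40 to 79 sites the contrast was small, since 847 windows of other genes read 85.6% and 67.3% and 9 stretches 92.7% and 80.2%. ZNF835, ZNF324, MZF1 and this comparison with windows were chosen after their values were seen.

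**Figure D4:**
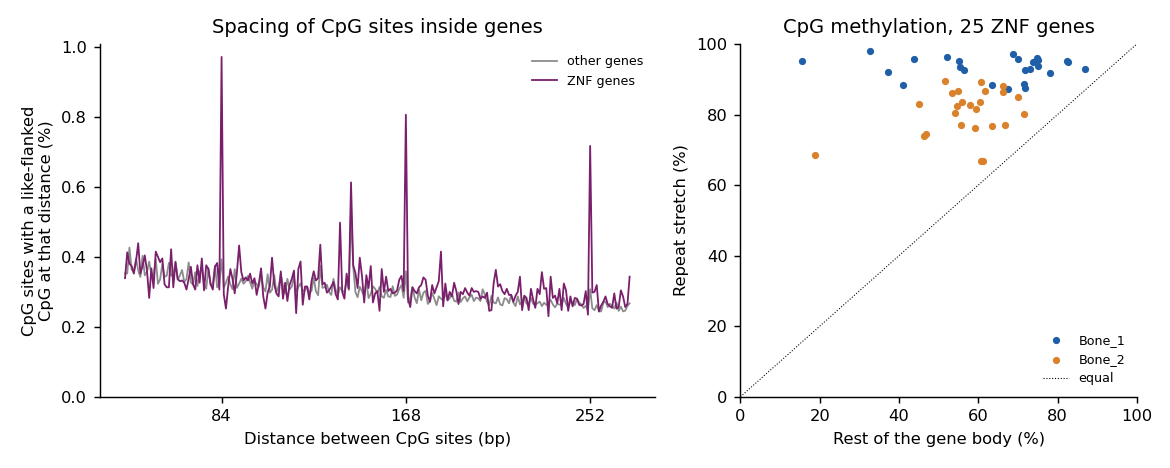
Left, the percentage of CpG sites inside genes that have a CpG with the same flanking bases at a given distance in bp, for ZNF genes and other genes; right, CpG methylation in percent of the repeat stretch against the rest of the gene body in the 25 ZNF genes with a stretch, with a dotted line for equal levels. ZNF genes peak at 84 bp (0.973%), 168 bp and 252 bp with a lesser peak at 143 bp that other genes share, and all points lie above the line, the rest here including the CpG-richer end.

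Over the whole gene, from one annotated end to the other, the median level of ZNF genes was 66.3% in Bone_1 and 60.1% in Bone_2, against 68.7% and 55.5% for other genes. The difference from other genes was thus -2.41 points in Bone_1 and 4.54 in Bone_2, or 1.06 ± 4.92 (SD, n = 2), with no common direction. Levels by summed calls were highest in ZNF470 (89.3% and 72.8%), ZNF444, ZNF579, ZNF8 and ZNF761. They were lowest by that measure in ZNF580 (8.57% and 10.2%), ZNF568, ZNF581, ZNF211 and ZNF432.

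Against the direction of the whole genome, 31 of 92 ZNF genes had a higher summed level over the body in Bone_2, 26 of them past the test (28.3% of the 92), with 10.6% of all genes called in that direction. So were 24.4% of the ZNF genes elsewhere, 13.1% of other genes of the chromosome and 14.5% of protein-coding genes of the other autosomes. Depth differed along the genes. Over all 92, the first 2 kb inside the richer end took a median of 25.8% of the body's calls in Bone_1 and 18.5% in Bone_2, for 25.2% of its CpG sites, and in other genes 25.1% and 21.1%. In the 31 genes with a higher summed level in Bone_2, that median share was 48.8% in Bone_1 and 18.7% in Bone_2. In the other 61 ZNF genes it was 19.95% and 18.4%. The same 2 kb held a median of 29.05% of the CpG sites in the 31 genes and 23.9% in the 61. The part of this uneven depth in the direction was not tested gene by gene. When each CpG site with at least 5 calls in both samples was given equal weight, only ZNF580 stayed higher in Bone_2, at 10.6% in Bone_1 and 11.6% in Bone_2. For ZNF383, a KRAB gene, summed calls gave 39.2% in Bone_1 and 71.5% in Bone_2, and the mean over sites 65.2% and 57.5%. For ZNF568, which in the mouse represses a placental promoter of Igf2, summed calls gave 4.58% and 27.8%, and sites 14.7% and 11.9%. By site, the medians of the ZNF bodies were 67.4% and 55.9%, close to the 69.5% and 54.6% of other genes.

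**Figure D5:**
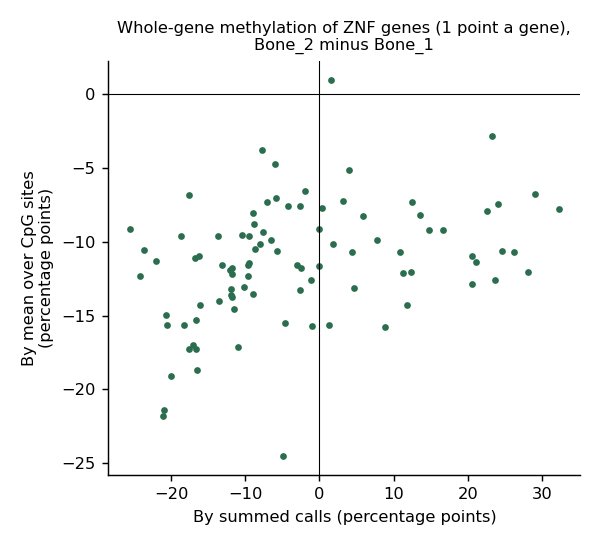
Whole-gene CpG methylation in Bone_2 minus Bone_1, in percentage points, by summed calls (horizontal) and by the mean over CpG sites with at least 5 calls in both samples (vertical), 1 point for each of the 92 ZNF genes. By summed calls 31 genes lie right of 0, and by sites 1 lies above it.

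Between the samples, 47 of 92 ZNF ends differed past an adjusted p of 0.05 by Fisher's exact test, with 69.2% of all genes called, and 28 were higher in Bone_2 (30.4%), with 18.5% of all genes called that way. All genes here include non-coding ones. Among protein-coding genes, 24.0% of other genes of the chromosome and 28.5% of those of the other autosomes were called that way. Of the ZNF genes elsewhere, 40.1% were. By summed calls 48 ends were higher in Bone_2, and by the mean over sites 14 were (15.2%, other genes 15.9%). Of the bodies, 80 of 92 differed, with 86.6% of all genes called, and of the 2 kb inside the poorer end 78 of 89, with 80% called. A single one of these 78, ZNF677, was higher in Bone_2 by summed calls, where 3.16% of all genes were called in that direction, and by the mean over its sites the direction turned (34.7% in Bone_1, 31.9% in Bone_2). These tests compare the libraries and not conditions. The split of directions depended on the reference. Tested against the odds ratio of all calls (1.84, Bone_1 to Bone_2) in place of 1, 57 ends were called (53.5% of all genes) and 53 of them were higher in Bone_2 relative to that ratio, with 33.0% of all genes called that way. The same test called 82 bodies (71.1% of all genes), 63 of them higher in Bone_2 (32.9% of all genes). It called 52 far ends (41.3% of all genes), 7 of them higher in Bone_2 (9.19% of all genes). When a difference of at least 20 percentage points was also required against an odds ratio of 1, 2 ends, 21 bodies and 23 far ends were left, with 21.7%, 19.9% and 30.7% of all genes.

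By summed calls, the ends that differed most were ZNF285, ZNF550, ZNF835, ZNF469 and ZNF446. ZNF285 fell from 82.9% in Bone_1 to 56.1% in Bone_2 by summed calls (adjusted p = 7.8e-05 by the exact test), but over its few sites with enough calls the mean was 86.95% and 86.2%. ZNF550 read 5.64% and 26.9% (adjusted p = 6.7e-24 by the exact test) and by sites 21.1% and 24.4%. ZNF835 read 16.3% and 35.8% by summed calls and 39.3% and 34.5% by sites, so the direction turned. ZNF469 (60.4% and 41.0%) and ZNF446 (88.9% and 70.8%) were lower in Bone_2 by sites as well, at 64.4% and 52.4% for ZNF469 and 89.6% and 70.5% for ZNF446.

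Of the proteins that KRAB zinc fingers and their partners use for silencing, a list of 20 was read in the same way. The CpG-richer end was under 20% in both samples in 15 of 20, beside 54.0% of the genes of the other autosomes. Most of the 20 ends held at least 70 CpG sites. Of other genes of chromosome 18, 77.6% were low with 70 to 99 sites and 88.6% with 100 or more. TASOR and ZFP57 lay just under the limit in Bone_2 (19.7% and 19.9%). In 20 of 20 the 2 kb inside the poorer end lay above the richer end past the test, with 65.1% of all genes and 76.3% of the genes of the other autosomes called that way. TRIM28, which lies on chromosome 18, read 0.36% in Bone_1 and 0.30% in Bone_2. SETDB1 read 1.33% and 2.45%. The exceptions were the DNA methyltransferases DNMT1 (4.79% and 23.3%) and DNMT3A (23.6% and 33.8%), UHRF1, which brings DNMT1 to newly made DNA (31.1% and 38.1%), and the X-linked genes ATRX (32.9% and 27.5%) and SUV39H1 (29.8% and 31.4%).

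An imprinted locus that holds zinc finger genes also lies on chromosome 18, and 4 genes of its list of 5 were found. The end of PEG3, an imprinted zinc finger gene expressed from the paternal copy, read 55.3% in Bone_1 and 46.0% in Bone_2 over 127 CpG sites. ZIM2 read 37.4% and 32.4% over 96 sites, USP29 70.5% and 49.0% over 17, and ZIM3 76.1% and 59.3% over 42. None of the 4 was under 20% in both samples, beside 49.5% of other genes of the chromosome. That share depended on CpG number. It was 88.6% with 100 sites or more, as in PEG3, and 77.6% with 70 to 99, as in ZIM2. It was 36.2% with 40 to 69 sites, as in ZIM3, and 2.32% with up to 39, as in USP29. These levels are averages over both parental copies and do not show which copy was methylated.

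The tissue label was set beside marker genes of cell types that bone can hold, read at the same CpG-richer ends. Ends under 20% in both samples were found in 3 of 10 genes of bone forming cells, 3 of 5 of cartilage, 1 of 6 of white blood cells, 0 of 5 of red blood cells, 2 of 4 of osteoclasts and 0 of 4 of fat cells, beside 54.0% of the genes of the other autosomes. That share depended on CpG number. All ends of the red blood and fat lists held up to 39 CpG sites, where 2.32% of other genes of chromosome 18 were low. Most cartilage ends held at least 70 sites, where 77.6% or more were low. The bone forming count and the medians below include IBSP, which had 9 calls in Bone_1 and so failed the minimum. The red blood count includes ALAS2, whose ends could not be ordered by CpG number. The bone forming list had median ends of 65.9% in Bone_1 and 51.6% in Bone_2, and its low members were COL1A1, COL1A2 and SP7. RUNX2, the early regulator of these cells, read 87.0% and 60% over 15 CpG sites. The 2 kb inside its other end read 28.6% and 23.8%, called below it in both samples. The order of its ends was thus not clear. Such a reverse order was called in 2 of 8 tested genes of bone forming cells and 1 of 5 of cartilage. For red blood cells it was 3 of 4, and for the other cell types 0, with 7.97% of all genes. Methylation of an end does not give expression, so the counts of low ends neither name nor exclude a cell type. The part of cell types in the levels of the ZNF genes was not tested.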

How the data were processed

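WGBS reads of both bone samples were processed by the authors, whose methods state filtering with Trim Galore, mapping with Bismark, removal of duplicates and extraction of calls. The deposited values are raw counts, for every CpG cytosine on either strand, of its methylated and its unmethylated calls, with no normalization. The submitters' processing notes name FastQC 0.11.5, Trim Galore 0.4.5, Bowtie2, Bismark 0.19.0 and ARS-UCD1.2. The paper states a different build and other versions of FastQC, Trim Galore and Bismark, and the annotation used here is ARS-UCD2.0. Conversion controls were not analysed here. Columns of other samples numbered 0.

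Strands were merged into CpG sites, and regions needed 20 calls in each sample. Ends were ordered by CpG number because the annotation gave no strand, which departs from the planned promoter and last 2 kb. Two-sided Fisher's exact tests with Benjamini-Hochberg adjustment ran over all genes of chromosomes 1 to 29 and X, and were tested on simulated data. Those of the stretches ran over the 59 genes of chromosome 18 that had a stretch with enough calls. Repeat stretches were sought in windows of 1000 bp moved by 20 bp. Profiles needed 10 calls a bin. Named genes were, by rule, the 5 highest and 5 lowest ends and bodies, the 5 largest and 5 smallest differences between regions, the 5 lowest far ends, the 5 ends that differed most between samples, every end from 20% to 80% in both, genes under the minimum, and TRIM28. The members and lists were chosen with earlier results of these data known. Samples were grouped by their labels. The SD over 2 samples describes these samples and not animals. Alternatives changed the minimum of calls, the weighting, the windows, the comparison genes and the thresholds. Computation used numba 0.67.0, pandas 2.3.3, scipy 1.17.1 and numpy 2.4.6 under Python 3.11.15, and plots used matplotlib 3.10.9.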

Additional observations from a re-analysis of the deposited data

How the results depend on the processing

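Of 110 values recomputed under a changed setting other than leaving out a sample, 87 stayed within the spread between the samples, within 1.5 times a count or within the interval of a share. The median end level of ZNF genes fell to 2.90% with a window of 500 bp to either side, where the share of ends under 20% rose to 81.3%, the difference from other genes was -5.31 points and 30 ends differed between the samples (51.1% of all genes). That difference was -5.95 points by the unweighted mean over sites, -27.4 against other genes of every kind, -9.55 against other genes within 1000 kb of a ZNF gene, -3.29 against genes of the other autosomes, -0.67 with the 2-fold condition on the ends, -6.44 against other genes without a repeat stretch and -7.42 with ends ordered by the stretch. For the 2 kb inside the poorer end it was 9.84 within 1000 kb, 5.88 against the other autosomes and 5.16 with the 2-fold condition. The body level was 69.8% without the first 500 bp and last 2 kb, and the body difference turned to -2.69 against the other autosomes, -0.35 by the mean over sites with 5 calls in both samples and -0.077 with the 2-fold condition. With a difference of at least 20 points, 2 ends, 21 bodies and 23 far ends differed between the samples (21.7%, 19.9% and 30.7% of all genes). All 12 stretches with a score over 10 lay above the rest of their gene (55.9% of all genes with such a stretch). Against the rest without the 2 kb inside the richer end, 15 of 25 stretches were called (40.4% of genes with a stretch). The causes were not tested.

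Leaving out either sample gave an end level of 8.19% to 11.0%, a body level of 60.1% to 66.3%, a far end level of 71.4% to 87.8%, and a stretch level of 82.5% to 93.8%. The differences from other genes ran from -7.25 to -6.59 points at the end, from -2.41 to 4.54 over the body and from 7.24 to 9.27 in the far 2 kb. The share of low ends was 71.7% without either sample, 77 or 78 genes had the far end above the richer end (68.7% and 69.3% of all genes), and 24 or 25 stretches lay above the rest (79.7% and 84.7% of genes with a stretch). The mean over sites in both samples, the 2-fold condition, the ordering by the stretch and every alternative on stretches were chosen after the data were seen.

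No paired analysis was possible because both bones belong to the same group. A start of transcription from the longest coding transcript and the coding part of the last exon were not run, since the annotation used here gives neither strand nor exons. Intervals were widest in the 2 kb inside the poorer end, where they reached a median of 3.49 and 4.34 points to either side and 3 genes were under the minimum.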
